A study of Mus musculus with 6 samples.

Results

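The E2F transcription factors were followed in MPC5 cells, a conditionally immortalized mouse podocyte line, after overexpression of lncRNA Dlx6-os1. The family was taken by gene name, E2f1 to E2f8, and all 8 genes were among the 11308 genes of the table, with 13 of its 21849 listed transcripts. RNA-seq was done in 3 samples overexpressing Dlx6-os1 and in 3 control samples, both in normal glucose and both labelled C57BL/6 kidney foot process cells. The labels name a lentivirus with an empty vector for the controls, but title the controls WT, and control replicate 3 carries no genotype entry. The methods name an adenovirus and normal controls, so what the controls received is not settled by the sources used here. Dlx6-os1 is not analysed here, and its level could not serve as a check of the labels. The values are FPKM, fragments scaled to transcript length and to the mapped fragments of a sample, made by the authors per transcript and summed here over the listed transcripts of each gene. Depth is unknown.

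E2F proteins bind DNA in front of genes for S phase and mitosis. E2f1, E2f2 and E2f3 are the activating members, which switch these genes on once the retinoblastoma protein and its relatives, the pocket proteins, release them. E2f4 and E2f5 act mainly as repressors together with pocket proteins, E2f6 represses through Polycomb-type complexes without pocket proteins, and the atypical members E2f7 and E2f8 repress without a DP partner, which the other members need to bind DNA. E2f7 and E2f8 are themselves targets of activating E2Fs and damp their output. Mature podocytes in the kidney normally stay out of the cell cycle. Lines such as MPC5 divide because they carry a temperature-sensitive SV40 large T antigen, a viral protein that binds the pocket proteins, and the sources used here do not give the growth temperature of these samples.

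The promoters of the members whose RNA was higher are shown first, with E2f3, whose RNA did not pass, for comparison, because E2F genes can carry binding sites for their own family. The forms TTTCCCGC, TTTGGCGC, TTTCGCGC and TTTGCCGC of the E2F site were searched on both strands in RefSeq windows of 250 bases before and 50 bases after each transcription start (GRCm38.p6, the assembly of mm10). Of 32851 such windows, 2.26% held at least 1 of these 8-letter forms and 9.57% held at least 1 when the first T was dropped, a shorter form added after the data had been seen. The windows matched 6 of the 8 members, and 1 window each of E2f2, E2f3 and E2f7 held an 8-letter form. E2f2 and E2f3 each had a further window (chr4:136180532-136180831 and chr13:29984342-29984641) without a match of either length. The shares above count windows and not genes, so they are not like for like with a count of members. E2f8 held only a shorter form, and the windows of E2f1 and E2f6 held neither. The RefSeq starts are not always those of the listed transcripts. The E2f1 window lies inside the gene, downstream of both listed starts, so the bases before those starts were not searched, and the E2f2 and E2f3 windows shown lie upstream of the listed starts. The capitals mark matches of either length on either strand. E2f7, E2f8 and E2f3 are given from 250 bases before the start to the base before it, and E2f2 as 30 bases after its start, where its only match lies. E2f3 had another short match, just past its start, that is not shown. The E2f7 stretch is chr10:110745189-110745438 (plus strand), that of E2f8 chr7:48881597-48881846 (minus strand), that of E2f3 chr13:29986064-29986313 (minus strand) and that of E2f2 chr4:136172293-136172322 (plus strand).
E2f7: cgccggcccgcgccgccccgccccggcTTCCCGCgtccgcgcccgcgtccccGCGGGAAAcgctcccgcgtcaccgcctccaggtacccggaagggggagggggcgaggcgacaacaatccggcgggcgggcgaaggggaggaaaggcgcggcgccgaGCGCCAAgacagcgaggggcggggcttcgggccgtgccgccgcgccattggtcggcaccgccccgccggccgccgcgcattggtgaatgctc
E2f8: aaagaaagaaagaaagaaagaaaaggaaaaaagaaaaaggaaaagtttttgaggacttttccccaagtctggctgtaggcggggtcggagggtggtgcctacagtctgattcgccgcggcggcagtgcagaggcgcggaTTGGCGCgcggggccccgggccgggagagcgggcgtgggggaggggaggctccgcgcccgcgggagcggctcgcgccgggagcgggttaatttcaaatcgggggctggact
E2f3: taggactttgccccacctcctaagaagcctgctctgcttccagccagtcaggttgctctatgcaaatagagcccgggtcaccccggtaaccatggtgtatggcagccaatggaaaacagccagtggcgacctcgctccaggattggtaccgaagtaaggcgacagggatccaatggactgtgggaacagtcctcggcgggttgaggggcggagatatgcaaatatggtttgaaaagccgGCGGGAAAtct
E2f2: ccgaatttggcggcatatagTTTGGCGCta
A match is a run of letters and was not tested as a binding site.

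Of the 8 family members, E2f2, E2f7 and E2f8 were higher in cells overexpressing Dlx6-os1, none was lower and 5 did not pass. The thresholds were those of the study, a fold over 1.5 with p below 0.05 before adjustment, here from limma on log2(FPKM + 1), which makes changes of low genes look smaller. Of all 11308 genes, 4.72% passed them, 2.49% higher and 2.23% lower. The same 3 members were those with p below 0.05 whatever the fold, as 9.16% of all genes were. Restricted to 8352 genes averaging 5 FPKM or more over the samples, which leaves out E2f2, 2.16% were higher. No member passed at an adjusted p under 0.05 (Benjamini-Hochberg over all genes), which 4 genes of the table (0.0354%) did. E2f7 was 34th of 11308 genes by p. In 4 members, E2f2, E2f4, E2f7 and E2f8, every sample overexpressing Dlx6-os1 lay above every control sample, as in 10.1% of all genes, and in none of the 8 did every sample lie below the controls, as in 6.24%. All 8 members had a control mean of at least 0.5 FPKM, so none was in the table only because it rose. Nothing in the labels says that the samples of a group came from separate cultures, so p-values measure the spread between these samples. The values are of bulk RNA, in which a higher share of dividing cells and more RNA per cell cannot be told apart.

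**Figure D1:**
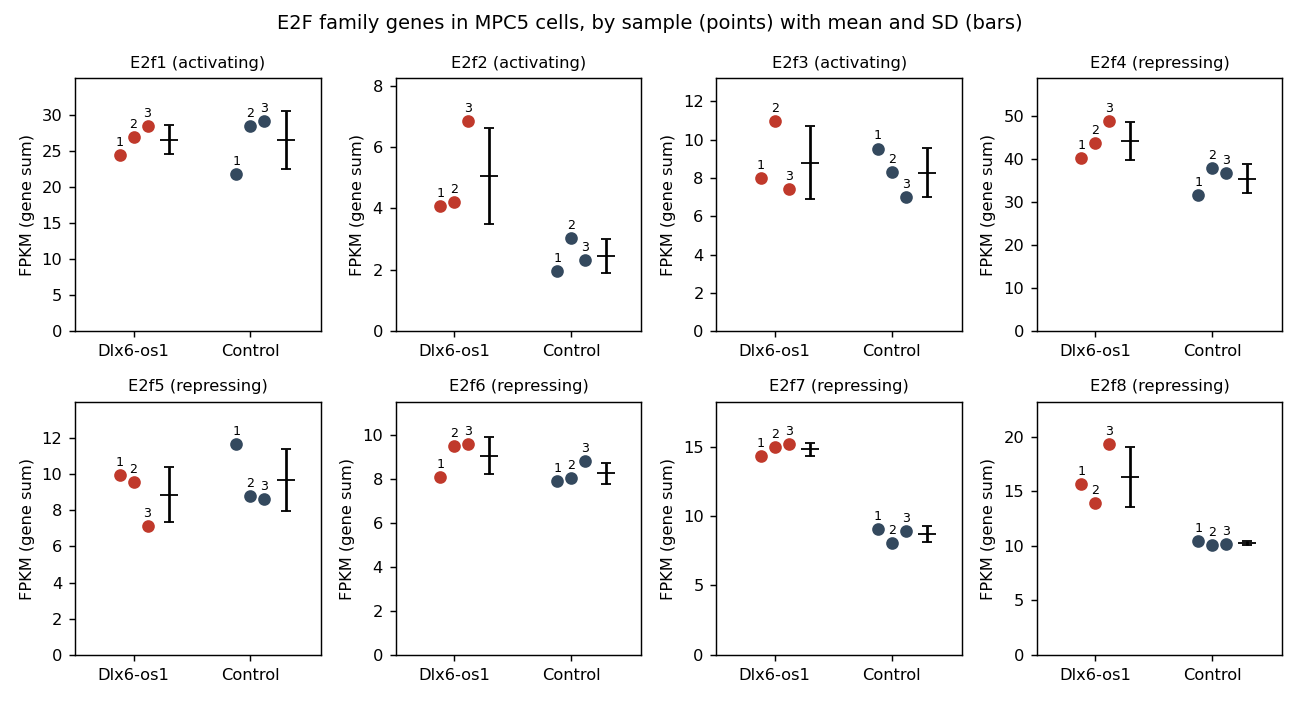
FPKM of the 8 E2F genes (y axes from 0, one scale per gene) in the samples overexpressing Dlx6-os1 and in the control samples. Points are samples with their replicate numbers and bars are means with SD. For E2f2, E2f4, E2f7 and E2f8 the groups do not overlap.

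Among the activating members only E2f2 passed, and it was the least abundant of the family. E2f2 (ENSMUSG00000018983.9, chromosome 4, 136172394 to 136196057 in mm10, plus strand) had 4.09, 4.22 and 6.87 FPKM in cells overexpressing Dlx6-os1, against 1.95, 3.04 and 2.34 FPKM in control cells. Overexpression replicate 3 was the highest of the 6 samples and the groups did not overlap. The log2 change was 0.80 (standard error 0.23, 95% confidence interval 0.27 to 1.32, limma adjusted p = 0.455, unadjusted p = 0.00779). Without overexpression replicate 3 it was 0.59, just past the fold threshold (0.58 on this scale). The fold of the mean FPKM, with no value added before the division, was 2.07.

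E2f1, the founding activator, was the most abundant of the activating class and did not pass. E2f1 (ENSMUSG00000027490.17, chromosome 2, 154559407 to 154569892, minus strand) had 24.4, 26.8 and 28.4 FPKM in cells overexpressing Dlx6-os1 and 21.8, 28.4 and 29.2 FPKM in control cells. The groups overlapped over nearly their whole range, and the log2 change was 0.012 (95% confidence interval -0.36 to 0.38). That interval does not reach the fold threshold on either side.

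E2f3 likewise did not pass. E2f3 (ENSMUSG00000016477.17, chromosome 13, 29906575 to 29985668, minus strand) had 7.98, 11.0 and 7.44 FPKM in cells overexpressing Dlx6-os1 and 9.53, 8.28 and 6.98 FPKM in control cells, with overlapping groups. It changed by 0.073 on the log2 scale (95% confidence interval -0.38 to 0.53). The sign turned without overexpression replicate 2 (-0.081) or control replicate 3 (-0.030).

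The clearest difference of the family was in E2f7, an atypical repressor. E2f7 (ENSMUSG00000020185.16, chromosome 10, 110745468 to 110787384, plus strand) had 14.3, 15.0 and 15.2 FPKM in cells overexpressing Dlx6-os1, against 9.08, 8.03 and 8.92 FPKM in control cells. The samples lay close together within each group and far apart between groups, with means of 14.8 ± 0.462 FPKM in cells overexpressing Dlx6-os1 and 8.68 ± 0.567 FPKM in control cells (SD, n = 3 each). The log2 change was 0.71 (standard error 0.15, 95% confidence interval 0.37 to 1.05, limma adjusted p = 0.352, unadjusted p = 0.00115). It stayed between 0.66 and 0.74 when each sample was left out in turn, and passed the thresholds each time.

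E2f8, the other atypical repressor, was also higher, with 1 sample further out. E2f8 (ENSMUSG00000046179.17, chromosome 7, 48866429 to 48881596, minus strand) had 15.7, 13.9 and 19.3 FPKM in cells overexpressing Dlx6-os1, against 10.4, 10.1 and 10.2 FPKM in control cells. The controls were nearly equal, and every sample overexpressing Dlx6-os1 was above them. The log2 change was 0.61 (standard error 0.17, 95% confidence interval 0.23 to 0.99, limma adjusted p = 0.425, unadjusted p = 0.00567). This is close to the fold threshold, and it fell below it without overexpression replicate 3 (0.49), after quantile normalization (0.57) and after median-centring (0.57).

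E2f4, the most abundant member, was higher in each sample overexpressing Dlx6-os1 by a smaller amount and did not pass. E2f4 (ENSMUSG00000014859.8, chromosome 8, 105297663 to 105305369, plus strand) had 40.2, 43.6 and 48.9 FPKM in cells overexpressing Dlx6-os1 and 31.6, 37.9 and 36.8 FPKM in control cells. The groups did not overlap. The change was 0.31 on the log2 scale (standard error 0.15), with a 95% confidence interval of -0.024 to 0.65. The limma unadjusted p was 0.0650 (adjusted p = 0.573), and the fold of the mean FPKM was 1.25.

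E2f5 and E2f6 overlapped between the groups. E2f5 (ENSMUSG00000027552.14, chromosome 3, 14578641 to 14606309, plus strand) had 9.93, 9.53 and 7.10 FPKM in cells overexpressing Dlx6-os1 and 11.6, 8.75 and 8.60 FPKM in control cells, a log2 change of -0.11 (95% confidence interval -0.56 to 0.33). Its sign rested on single samples, with 0.020 without overexpression replicate 3 and 0.013 without control replicate 1. E2f6 (ENSMUSG00000057469.7, chromosome 12, 16810965 to 16826743, plus strand) had 8.10, 9.53 and 9.59 FPKM in cells overexpressing Dlx6-os1 and 7.93, 8.03 and 8.82 FPKM in control cells. Its log2 change was 0.12 (95% confidence interval -0.24 to 0.48).

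**Figure D2:**
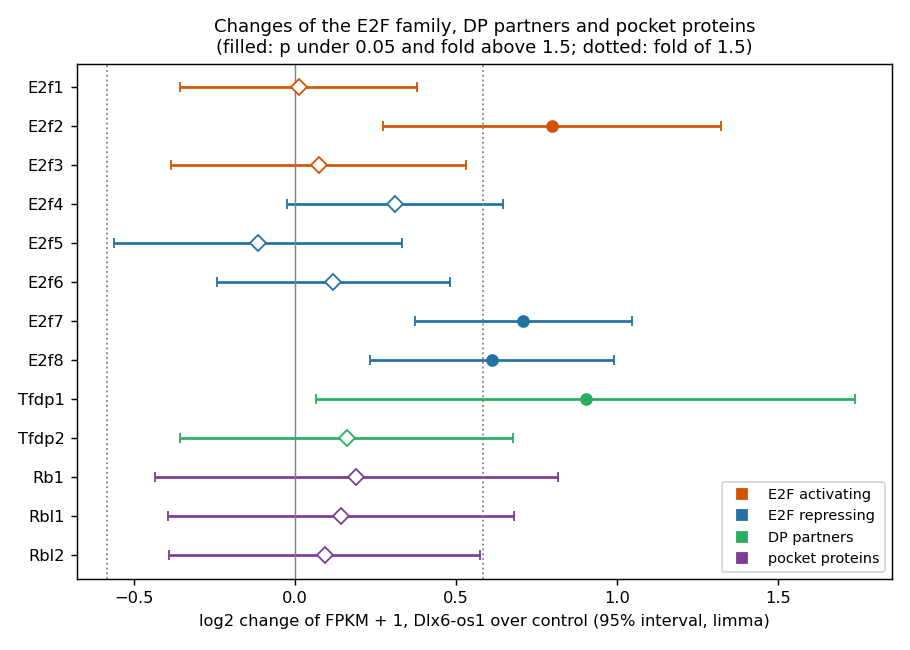
Log2 change of FPKM + 1, Dlx6-os1 over control (x axis), with 95% confidence intervals from limma, for the E2F genes, the DP partners and the pocket protein genes (rows). Filled circles passed the thresholds of the study and open diamonds did not. E2f2 (0.80), E2f7 (0.71), E2f8 (0.61) and Tfdp1 (0.90) are filled.

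The order of levels changed in its middle. In cells overexpressing Dlx6-os1, E2f4 was at 44.3 ± 4.40 FPKM, E2f1 at 26.5 ± 2.00, E2f8 at 16.3 ± 2.75, E2f7 at 14.8 ± 0.462, E2f6 at 9.07 ± 0.843, E2f5 at 8.85 ± 1.53, E2f3 at 8.80 ± 1.91 and E2f2 at 5.06 ± 1.57 (SD, n = 3). In control cells, E2f4 was at 35.5 ± 3.36 FPKM, E2f1 at 26.5 ± 4.05, E2f8 at 10.2 ± 0.170, E2f5 at 9.66 ± 1.71, E2f7 at 8.68 ± 0.567, E2f3 at 8.26 ± 1.28, E2f6 at 8.26 ± 0.487 and E2f2 at 2.44 ± 0.550 (SD, n = 3). In control cells the 5 genes from E2f8 to E2f6 differed from their neighbours in this order by less than the larger of their SDs. In cells overexpressing Dlx6-os1, E2f8 and E2f7 lay above the group of E2f6, E2f5 and E2f3, whose values overlapped.

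Summed over members, the repressing class was higher in cells overexpressing Dlx6-os1 and the activating class overlapped between the groups. The activating genes E2f1 to E2f3 summed to 36.5, 42.0 and 42.7 FPKM in cells overexpressing Dlx6-os1 and to 33.3, 39.8 and 38.5 FPKM in control cells. The repressing genes E2f4 to E2f8 summed to 88.2, 91.6 and 100.1 FPKM in cells overexpressing Dlx6-os1, against 70.7, 72.8 and 73.4 FPKM in control cells. The activating sum averaged 1.09 times its level in control cells and the repressing sum 1.29 times. E2f7 and E2f8 made up 12.2 of the 21.0 FPKM by which the repressing mean was higher. Their sum was 31.1 ± 2.95 FPKM in cells overexpressing Dlx6-os1 and 18.9 ± 0.720 FPKM in control cells (SD, n = 3 each), while E2f4 to E2f6 summed to 62.2 ± 3.72 FPKM in cells overexpressing Dlx6-os1 and 53.4 ± 1.90 FPKM in control cells. The atypical members held 34.0%, 31.6% and 34.5% of the repressing FPKM in cells overexpressing Dlx6-os1, against 27.6%, 24.9% and 26.1% in control cells.

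The ratio of activating to repressing FPKM was 0.413, 0.459 and 0.426 in cells overexpressing Dlx6-os1, against 0.471, 0.546 and 0.524 in control cells, so the groups did not overlap. These sums are described without a test, because the members and their classes were chosen with earlier results of these data known. The difference depends on which members are summed and on their weights. The log2 of the ratio differed by -0.25 between the groups as summed and by -0.042 without E2f1 and E2f4. It differed by -0.033 when the members' log2(FPKM + 1) were averaged with equal weight. Taken to E2f4 to E2f6 alone, the activating ratio was 0.626, 0.671 and 0.650 in cells overexpressing Dlx6-os1. In control cells that ratio was 0.651, 0.727 and 0.709, so the groups overlapped. Taken to E2f7 and E2f8 alone, it was 1.216, 1.454 and 1.237 in cells overexpressing Dlx6-os1. In control cells it was 1.708, 2.195 and 2.010, without overlap.

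**Figure D3:**
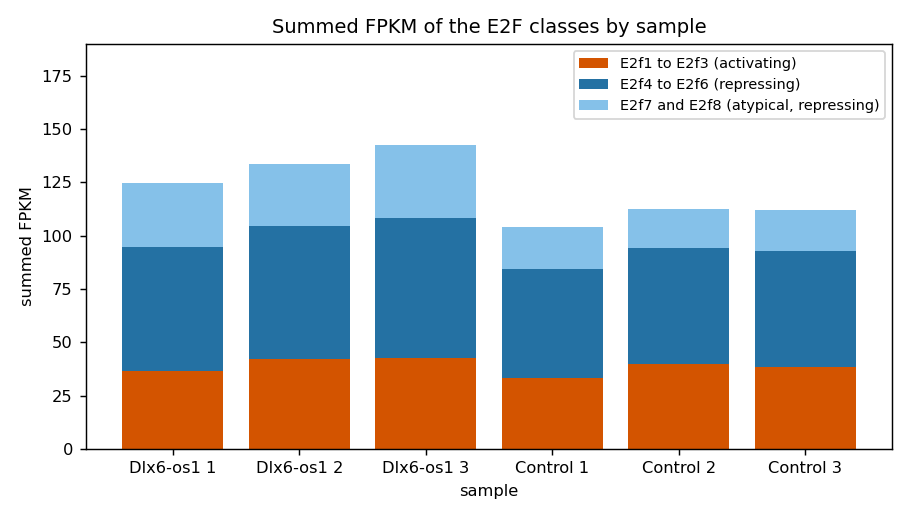
Summed FPKM (y axis) of the activating genes E2f1 to E2f3, the repressing genes E2f4 to E2f6 and the atypical repressors E2f7 and E2f8, stacked, in each of the 6 samples (x axis). The atypical part is larger in each of the 3 samples overexpressing Dlx6-os1 (28.9 to 34.5 FPKM) than in the 3 control samples (18.1 to 19.5 FPKM).

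The listed transcripts show which RNA carried each sum. E2f2, E2f4 and E2f6 had 1 listed transcript each, and the other genes had 2. Of the 13 transcripts, E2f2-001 (log2 change 0.80) and E2f7-001 (0.71, limma unadjusted p = 0.00201) passed as higher and none as lower, against 3.07% of all transcripts higher and 2.51% lower. E2f7-001, with 13 exons and 5473 bases in GENCODE M21, held 93.7%, 93.8% and 94.3% of the E2f7 sum in cells overexpressing Dlx6-os1 and 93.9%, 93.2% and 92.8% in control cells. E2f7-002 encodes the same 904 codons with 3567 bases in all. It had 0.906, 0.931 and 0.860 FPKM in cells overexpressing Dlx6-os1, against 0.558, 0.550 and 0.642 FPKM in control cells. These groups did not overlap. Its log2 change of 0.26 did not pass, and at such low values the 1 added before the log makes the change look smaller. The makeup of the E2f7 RNA was thus nearly the same in all 6 samples.

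For E2f8 the split between transcripts varied more than the sum. E2f8-002 had 9.22, 8.31 and 14.4 FPKM in cells overexpressing Dlx6-os1 and 7.07, 3.69 and 7.49 FPKM in control cells. E2f8-001 had 6.48, 5.62 and 4.90 FPKM in cells overexpressing Dlx6-os1 and 3.35, 6.39 and 2.72 FPKM in control cells. In control replicate 2 the order of the pair was turned, whereas the sums of the 3 controls lay within 10.1 to 10.4 FPKM. Both transcripts encode the same 860 codons and share 3310 exonic bases, differing in 189 bases found only in E2f8-001 and 381 found only in E2f8-002. Neither passed by itself, with a log2 change of 0.73 for E2f8-002 (limma unadjusted p = 0.0561) and of 0.43 for E2f8-001 (limma unadjusted p = 0.198). The RefSeq window shown above starts from the first base of E2f8-001.

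E2f5 showed such a turn in 1 control sample. In control replicate 1, E2f5-001 had 2.82 FPKM and E2f5-201 had 8.82 FPKM, whereas E2f5-201 was at 0.0913 FPKM or less in the other 5 samples and was listed at 0 in overexpression replicate 1 and control replicate 2. The pair shares 1748 exonic bases, with 31 found only in E2f5-001 and 3 only in E2f5-201. A sum over both is therefore the value to compare, and by itself E2f5-001 had a log2 change of 0.45 where the sum had -0.11. E2f1-001 and E2f1-002 also traded places, with E2f1-001 at 38.0%, 65.1% and 59.5% of the E2f1 sum in cells overexpressing Dlx6-os1 and at 42.6%, 55.4% and 62.9% in control cells. Both lower shares came from replicate 1 of their group. E2f3-001 held 78.1% to 93.3% of its sum, and E2f3-002, which GENCODE M21 classes as a processed transcript without a reading frame, held the rest.

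**Figure D4:**
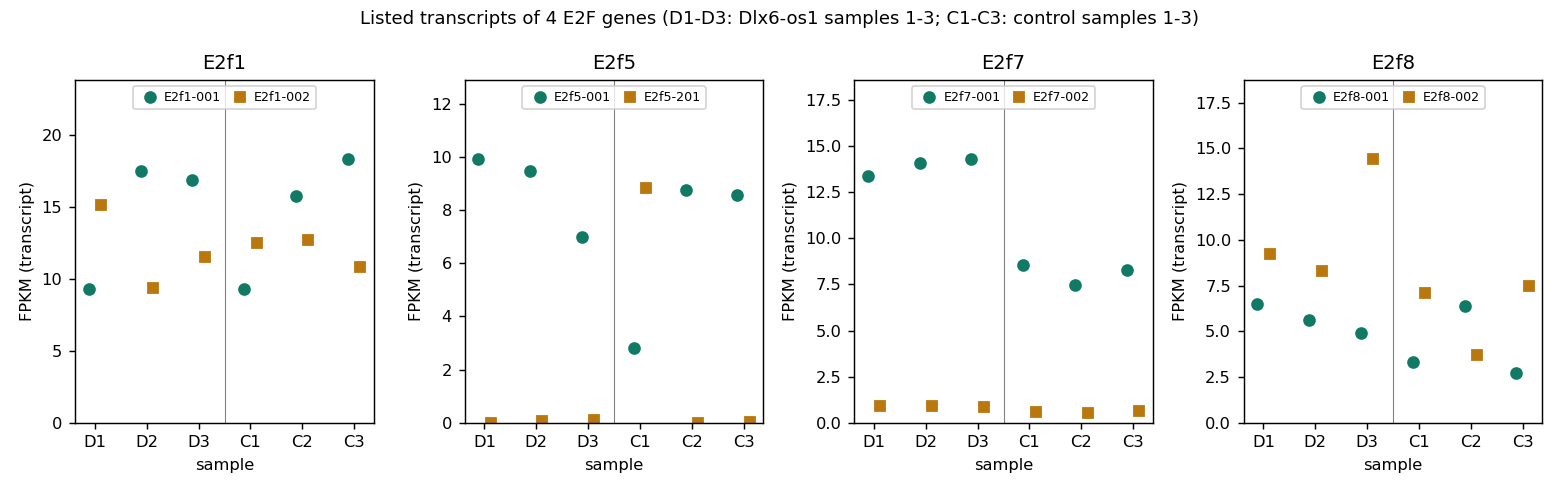
FPKM (y axes from 0) of the 2 listed transcripts of E2f1, E2f5, E2f7 and E2f8 in the samples overexpressing Dlx6-os1 (D1 to D3) and in the control samples (C1 to C3). E2f7-001 separates the groups, E2f5-201 is high in control replicate 1 alone, and the E2f8 pair is turned in control replicate 2.

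By annotation, E2f5 overlaps the protein-coding gene 1810022K09Rik on the other strand, and E2f3, E2f7 and E2f8 overlap noncoding genes (Gm11365, 1700020G17Rik and Gm2788) on the other strand. These overlaps are of whole gene spans, and the exons of the partners were not compared. The dUTP libraries mark the strand, but no source used here says that counting used it. Whether reads of such partners entered the E2F values is therefore not known.

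Most E2Fs bind DNA as a pair with a DP protein, and of the DP genes Tfdp1 was higher at the thresholds of the study while Tfdp2 did not pass. Tfdp1 had 121.7, 141.0 and 129.4 FPKM in cells overexpressing Dlx6-os1, against 34.4, 100.3 and 95.8 FPKM in control cells. Control replicate 1 was far below the other controls, and the groups did not overlap. The change of 0.90 on the log2 scale (limma standard error 0.37, adjusted p = 0.523, unadjusted p = 0.0377) was 0.41 without control replicate 1. The call was lost then and without any 1 of overexpression replicates 1 (0.95), 2 (0.85) and 3 (0.91). In control replicate 1 the transcript Tfdp1-201 was listed at 1.79 FPKM, whereas it was at 111.1, 116.6 and 93.5 FPKM in cells overexpressing Dlx6-os1 and at 91.6 and 86.2 FPKM in controls 2 and 3. Tfdp2 had 12.4, 8.43 and 12.3 FPKM in cells overexpressing Dlx6-os1 and 10.9, 11.4 and 7.23 FPKM in control cells, with overlapping groups.

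The pocket protein genes, whose products hold E2Fs in check, overlapped between the groups, and none of the 3 passed. Rb1, the retinoblastoma gene, had 24.4, 20.2 and 17.1 FPKM in cells overexpressing Dlx6-os1 and 28.0, 14.1 and 14.0 FPKM in control cells. Its log2 change was 0.19, and without control replicate 1, which was above all samples overexpressing Dlx6-os1, it was 0.51, below the fold threshold, with groups that no longer overlapped. Rbl1 (p107) had a log2 change of 0.14 (95% confidence interval -0.39 to 0.68) and Rbl2 (p130) of 0.092 (-0.39 to 0.57). Control replicate 1 was the highest of the 6 samples for each of the 3 genes. Of 12 genes of the E2F6 complexes none passed in either direction, with a median log2 change of -0.062, and the 3 with the smallest p were Yaf2 (-0.33), Max (0.11) and Hdac1 (0.10).

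Of 7 genes of the ubiquitin ligases that remove E2Fs, Ccnf and Cdc20 were higher and none was lower, beside 2.49% of all genes higher and 2.23% lower. Ccnf, cyclin F, which in human cells brings activating and atypical E2Fs to degradation, had 43.4, 49.6 and 62.4 FPKM in cells overexpressing Dlx6-os1, against 17.0, 26.7 and 31.0 FPKM in control cells. The groups did not overlap and the change was 1.05 on the log2 scale (limma standard error 0.24, adjusted p = 0.393). Cdc20, an activator of the anaphase-promoting complex, had a log2 change of 0.66, which was 0.43 without control replicate 1, 0.53 without overexpression replicate 3 and 0.66 without control replicate 2, with the call lost each time. Skp2, which marks E2f1 in human cells, had a log2 change of 0.24 and did not pass.

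The genes that E2Fs are known to regulate were followed in 6 lists. Of 73 such genes, all in the table, 5 (6.85%) were higher, none was lower and 68 did not pass, beside 2.49% of all genes higher. The median log2 change was 0.19, beside 0.028 over all genes, and 55 of the 73 lay above 0, as did 6129 of all 11308. Without overexpression replicate 3 the count was 3, and with each gene's variance estimated alone it was 2. Both the count and the median differed between the lists.

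The genes that drive the cell cycle held 3 of the 5, in a list of 10 with a median of 0.51. Ccna2, cyclin A2, a partner of the kinases of S phase and G2, had 91.7, 93.4 and 111.3 FPKM in cells overexpressing Dlx6-os1, against 41.2, 52.0 and 65.1 FPKM in control cells (log2 change 0.91, limma adjusted p = 0.352). Ccnd1, cyclin D1, which acts upstream of the pocket proteins as well as being an E2F target, had 27.5, 28.2 and 40.3 FPKM in cells overexpressing Dlx6-os1, against 16.3, 17.9 and 14.4 FPKM in control cells (log2 change 0.92). In both genes the groups did not overlap. Mybl2, the transcription factor B-Myb, had a log2 change of 0.77, which was 0.56 without overexpression replicate 3 and 0.58 without control replicate 1, where the call was lost. Cdk1 (0.58) and Ccne1, cyclin E1 (0.53), had groups that did not overlap but were below the fold threshold.

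Of 24 genes of DNA replication, the classic targets, 1 (4.17%) was higher, beside 2.49% of all genes. This was Mcm10, which helps load polymerase at origins. It had 9.20, 9.05 and 15.8 FPKM in cells overexpressing Dlx6-os1, against 5.04, 4.82 and 7.80 FPKM in control cells, a log2 change of 0.82 (limma unadjusted p = 0.0123) that was 0.58 without overexpression replicate 3, below the fold threshold. The median of the list was 0.082, and Pcna, the sliding clamp, had a log2 change of -0.15 with every sample overexpressing Dlx6-os1 below the controls. Of 10 genes of nucleotide supply none passed, with a median of 0.17. In this list Rrm2 (0.45) and Rrm1 (0.35), the subunits of ribonucleotide reductase, and Ctps (0.38) had the smallest p.

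Of 11 genes of checkpoints and repair, 1 (9.09%) was higher, beside 2.49% of all genes. This was Bub1, a kinase of the spindle checkpoint (log2 change 0.69, limma unadjusted p = 0.0271), with overlapping groups. Its call was lost without overexpression replicate 1 (0.64), overexpression replicate 3 (0.67), control replicate 2 (0.45) or control replicate 3 (0.64). None of 10 chromatin genes passed (median 0.25), where Hmgb2 (0.47), Chaf1a (0.31) and Eed (0.31) had the smallest p. None of 8 apoptosis genes passed (median 0.25). Among those, Trp73, the p53 relative p73, had 0.352, 0.526 and 0.687 FPKM in cells overexpressing Dlx6-os1, against a listing at 0, 0.105 and 0.135 FPKM in control cells, and was in the table only through the first group. Cdkn2a, which encodes p16 and p19Arf, had a log2 change of -0.40 with groups that did not overlap, and Bcl2l11, which encodes Bim, had 0.50 with groups that did.

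**Figure D5:**
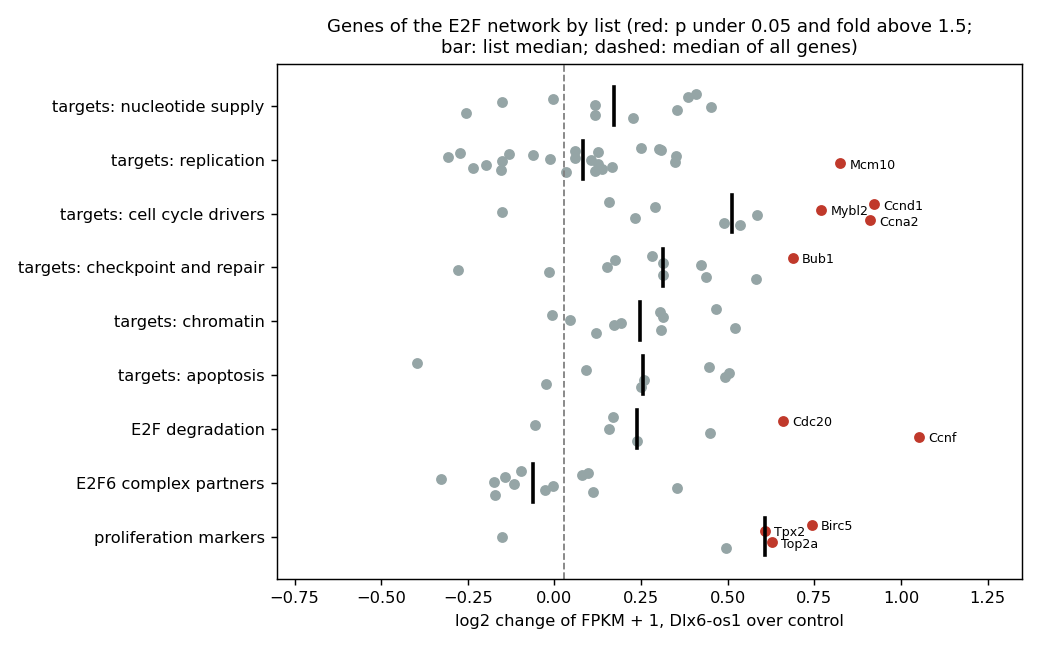
Log2 change of FPKM + 1, Dlx6-os1 over control (x axis), of the genes in the lists around the E2F family (rows). Each point is a gene, red where it passed the thresholds of the study, black bars are list medians and the dashed line is the median of all genes (0.028). Among these lists the medians run from -0.062 for the E2F6 partners to 0.61 for the proliferation markers, and 0.51 for the cell cycle drivers.

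Markers of dividing cells also differed between the groups. Of 5 proliferation markers, Tpx2 (log2 change 0.61), Top2a (0.63) and Birc5 (0.74) were higher, beside 2.49% of all genes, Mki67 (0.49) did not pass and Pcna lay below the controls, as given above. Their summed level was 453.2 to 515.8 FPKM in cells overexpressing Dlx6-os1 and 380.5 to 431.9 FPKM in control cells. Each of the 3 calls was lost without 2 or more of the samples taken singly. Tpx2 was at 0.46 without control replicate 2, Top2a at 0.47 without control replicate 2, and Birc5 at 0.52 without control replicate 1. Whether the share of dividing cells has a part in the E2F values was not tested.

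Some cell type markers differed between the groups as well. Of the podocyte markers reported here, Synpo, Podxl, Cd2ap and Actn4 were in the table, their groups overlapped and none passed, with log2 changes of -0.20, -0.14, 0.10 and 0.20. Nphs1, which encodes a protein of the podocyte slit diaphragm, was not among the listed transcripts. Of 8 tubule markers 3 were in the table, Cdh16, Aqp1 and Lrp2. All 3 were lower, beside 2.23% of all genes. Their sum was 102.9 to 282.5 FPKM in cells overexpressing Dlx6-os1 and 337.2 to 532.5 FPKM in control cells. The sum was lowest in overexpression replicate 3, the sample in which E2f2, E2f4, E2f7 and E2f8 were highest. The lower call was lost for Aqp1 without control replicate 1 (-1.36) or control replicate 2 (-1.23) and for Lrp2 without overexpression replicate 3 (-0.42) or control replicate 1 (-0.60). None of 6 endothelial markers and 1 of 6 leukocyte markers (Cd68) was in the table, and of 4 listed mesangial and fibroblast markers Gata3 was lower (log2 change -1.09). The part of these markers in the E2F values was not tested.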

How the data were processed

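Total RNA of 6 MPC5 samples was made into random-primed dUTP libraries and sequenced. The authors deposited FPKM of 21849 transcripts, and the submitters' processing notes name FastQC, HISAT2, StringTie and mm10, without versions. No source used here names the annotation release. No listed transcript had a mean below 0.5 FPKM in both groups. Read counts were not analysed here. Low values scaled by transcript length were searched for steps worth 1 read, which were barely clearer (concentration 0.153 to 0.236) than after shuffling the lengths (0.148 to 0.176), so precision rests on the spread between samples.

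Samples were grouped by their titles, and columns were matched by description. Gene sums by symbol, as log2(FPKM + 1), entered limma 3.58.1 under R 4.3.3 (trended eBayes, two-sided tests). P-values were adjusted by Benjamini-Hochberg across the 11308 genes. A filter at a mean of 0.5 in 1 or both groups removed 0 genes. An exact permutation test of 3 against 3 samples gives p = 0.1 at the least and was not used. The model was also run on simulated data, drawn as independent normal values with the variances of this same fit. That run checks the code and cannot show how the model handles outlying samples. Exons and overlaps came from GENCODE M21, and promoters from RefSeq.

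The members, classes, lists and thresholds were chosen with earlier results of these data known. The genes named were all E2F, DP and pocket protein genes and, from each list, up to 8 that passed, or up to 3 with the smallest p. Others named with values (Pcna, Cdk1, Ccne1, Skp2 and Mki67) were chosen after their values were seen. Alternatives were pseudocounts, filters, scalings, the replicate block, other variance estimates, single transcripts and leaving out each sample. Some marker genes are not reported here.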

Additional observations from a re-analysis of the deposited data

How the results depend on the processing

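Across 149 alternative values for the 8 E2F genes, 131 kept the direction and the side of the thresholds. The fold of mean FPKM, which had no test, was counted as kept within the limma standard error of the main change. Part of the 131 could not differ. The filter removed 0 genes, and E2f2, E2f4 and E2f6 had 1 listed transcript each, equal to the gene sum. The replicate block and the other variance estimates leave the log2 change as it is. All alternatives of E2f4 and E2f6 were kept, and for E2f2 all but the fold of mean FPKM, 1.05 on the log2 scale. Low changes turned sign. E2f1 was at -0.0060 after quantile normalization, -0.026 after median-centring and -0.023 for E2f1-002. E2f3 was at -0.11 for E2f3-002, and E2f5 at 0.45 for E2f5-001. Single transcripts no longer passed for E2f7-002 (0.26), E2f8-001 (0.43) and E2f8-002 (0.73), and E2f8 was at 0.57 after quantile normalization and after median-centring. Leaving out each sample gave -0.12 to 0.085 for E2f1, 0.59 to 0.92 for E2f2, -0.081 to 0.17 for E2f3, -0.20 to 0.020 for E2f5 and 0.49 to 0.71 for E2f8. It gave 2 to 3 higher family genes, 3 to 7 higher targets, 0 to 1 DP or pocket protein genes, and 203 to 407 higher and 181 to 382 lower genes in all. Over the same omissions Rb1 ran from 0.030 to 0.51, Tfdp2 from -0.026 to 0.33, Rbl1 from -0.017 to 0.39 and Rbl2 from -0.088 to 0.29, each lowest without control replicate 3. Without sharing the variance between genes, 2 targets, 0 DP or pocket protein genes, and 145 higher and 103 lower genes passed. The class ratio differed by -0.033 with equal weights and by -0.042 without E2f1 and E2f4, against -0.25 as summed. After median-centring, 228 genes were higher and 314 lower, against 282 and 252 without it. The cause of these shifts was not tested.

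Whether the replicate numbers pair the samples was not settled, because the labels link same-numbered samples by the number only. Deviations from the group means correlated across genes by 0.29, 0.024 and 0.29 between same-numbered samples and by -0.31 to 0.11 between the others. With the replicate block, 3 E2F genes were higher as without it, and 349 genes were higher and 294 lower in all. Overexpression replicate 2 and control replicate 2 each correlated better with another number.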

Other observations

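The genes whose levels ran most like those of the 3 higher members were named as a description over 6 samples, out of 10348 genes whose mean reached 1 FPKM in 1 or both groups, predicted genes left out. The 6 samples share the group difference, and with few samples many genes reach a high value, so nothing follows on shared function or control. For E2f7 these were Ythdf2, a reader of methylated adenosine in RNA, Tnfrsf21, Pdxdc1, Rbm17 and the chemokine gene Ccl20, with Pearson's r of log2(FPKM + 1) from 0.981 to 0.993. For E2f8 they were Zfp62, Nolc1, the histone gene Hist1h2bn, the nuclear pore gene Nup50 and Slc4a1ap, with r from 0.990 to 0.995. For E2f2 they were Nrg2, the helicase gene Recql4, Dnaja3, Trappc10 and Sept8, with r from 0.993 to 0.996. Of these 15 genes, Ccl20, Zfp62, Hist1h2bn and Recql4 passed the thresholds, all higher, beside 2.49% of all genes. Picking genes for likeness to higher members favours such calls, so they are no separate result.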
